A study of Mus musculus with 9 samples.

Results

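The genes described here are 10 genes of the muscle cytoskeleton in the hindbrain of mouse embryos: Des, Flnc, Acta2, Actc1, Tagln, Cnn1, Myl4, Myl7, Tnnt2 and Tnni1. They were taken by symbol from a table of 48587 genes, and all 10 were found. Des and Flnc were chosen because they were higher in Zfp423 mutants in these same libraries, and the other 8 were added as striated and smooth muscle filament genes, to ask whether Des and Flnc rose with other muscle genes or alone. The values of Des and Flnc against wild type are therefore a description, and the tests concern the other members.

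Zfp423 encodes a transcription factor with many zinc fingers that acts in the developing brain. RNA was sequenced from hindbrains dissected on embryonic day 9.5 from C57BL/6N embryos without treatment. The d9-20 embryos lacked exon 4 of Zfp423 and so zinc fingers 9 to 20 of the protein, the d28-30 embryos lacked exons 6 and 7 and so zinc fingers 28 to 30, and the controls were wild-type (wt) littermates with the full-length protein. The labels do not give the zygosity, the mutant line that the littermates belonged to, or whether embryos were pooled. Each genotype had 3 libraries, named replicates 1, 2 and 3, with the library that has no number in its title as replicate 3, and p-values measure the spread between these libraries, which may in part be technical.

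Muscle cells contract by sliding actin filaments along myosin filaments. In striated muscle, troponins on the actin filament place contraction under calcium control, and in smooth muscle calponin and transgelin bind the actin filament. Desmin forms the intermediate filaments that tie the contractile units of muscle together, and filamin C cross-links actin near the Z-disc and the cell membrane. Early in development several of these genes, such as Acta2 and Tagln, are also expressed outside mature muscle.

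The start regions of 3 members are shown because these genes differ in the presence of the CArG box, the site of serum response factor (SRF) that is known from many actin and smooth muscle genes. They come from RefSeq (GRCm38.p6), which gave windows of 250 bases before to 50 bases from the gene start for 9 of the 10 members. Capitals mark the letters of the motifs searched for, on both strands. These were the CArG box in its exact form (CCWWWWWWGG, with W for A or T) and the E-box (CANNTG, the site type of myogenic basic helix-loop-helix factors). The M-CAT element (CATTCC, the site type of TEAD factors) was marked as well. Each is printed 5′ to 3′ on the strand of its gene.
Des, chr1:75360042-75360341, plus strand: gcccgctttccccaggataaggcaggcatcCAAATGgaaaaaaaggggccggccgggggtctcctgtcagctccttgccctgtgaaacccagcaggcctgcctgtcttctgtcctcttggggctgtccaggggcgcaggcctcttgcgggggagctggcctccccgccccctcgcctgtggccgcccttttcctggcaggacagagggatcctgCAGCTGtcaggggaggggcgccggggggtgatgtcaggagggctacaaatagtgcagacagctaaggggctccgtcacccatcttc
Flnc, chr6:29433006-29433305, plus strand: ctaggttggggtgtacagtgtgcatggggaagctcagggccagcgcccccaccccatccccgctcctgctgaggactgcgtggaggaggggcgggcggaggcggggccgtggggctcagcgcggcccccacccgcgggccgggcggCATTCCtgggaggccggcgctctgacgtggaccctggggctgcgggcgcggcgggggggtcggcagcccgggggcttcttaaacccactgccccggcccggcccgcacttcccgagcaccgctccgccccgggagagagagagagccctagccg
Actc1, chr2:114052826-114053125, minus strand: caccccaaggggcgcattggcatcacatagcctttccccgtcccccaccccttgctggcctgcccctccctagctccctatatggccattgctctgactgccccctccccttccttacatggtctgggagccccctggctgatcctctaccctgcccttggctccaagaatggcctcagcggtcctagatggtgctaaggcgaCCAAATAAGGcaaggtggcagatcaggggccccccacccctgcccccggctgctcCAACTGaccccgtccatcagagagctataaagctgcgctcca

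No CArG box of the exact form was found in the window of Des or in either window of Flnc. Among the 9 members, Actc1 had one from -47 to -38 and Myl7 one from -61 to -52, counted from the gene start. Of 32851 windows of the same length genome-wide, 1.63% hold one. Sequences that differ from this form by a letter were not counted. They include CCCTATATGG and CCTTGTTTGG in the Acta2 window and CCCTAAATGG in the Flnc window that is not shown. The Actc1 window also holds CCCTATATGG. Des had E-boxes from -220 to -215 and from -36 to -31, a motif that 72.3% of windows hold. Flnc had no E-box, and it had an M-CAT element from -104 to -99 in the window shown, which 14.7% of windows hold. RefSeq lists another Flnc start, whose window overlaps the one shown and holds the same M-CAT letters at -1 to 5. These matches describe the letters of the windows only.

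Des lies on chromosome 1 (75360329 to 75368579, plus strand) and Flnc on chromosome 6 (29433256 to 29461883, plus strand) in GENCODE M21 (GRCm38). Acta2 lies on chromosome 19, Actc1 on chromosome 2, Tagln and Cnn1 on chromosome 9, Myl4 and Myl7 on chromosome 11, and Tnnt2 and Tnni1 on chromosome 1. An antisense gene overlaps the end of Des (Gm15179), with 0 to 4 counts per library.

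The libraries held 16903382 to 24216412 counts, and a floor of 3 counts was equal to 0.126 to 0.177 CPM, the unit of counts scaled to library size used here. A minimum on counts left 15695 genes for testing in edgeR's quasi-likelihood model over all 9 libraries. Of the 10 members, 7 were tested, and Myl4, Tnnt2 and Tnni1 were below the minimum. The d28-30 replicate 2 library stood apart, with 2.07% of counts from mitochondrial genes beside 0.904% to 1.42% elsewhere and chi-square per degree of freedom of 28.6 and 34.5 against its group, where no other pair within a genotype was above 14.0. The libraries differed in the RNA of Y-linked genes and of red blood cells. The summed CPM of 4 Y-linked genes ranged over 63.7 to 205 (wt), 0.0506 to 171 (d9-20) and 0.0589 to 189.6 (d28-30). The lowest values of the mutants were those of replicate 1. In wt, replicate 2 was at 63.7 CPM, beside 205 and 167 CPM in replicates 1 and 3. Whether libraries held embryos of 1 sex or of both was not tested. The summed CPM of 13 erythroid genes ranged over 4135 to 7881 (wt), 3676 to 4275 (d9-20) and 4329.7 to 6493 (d28-30).

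Des, the muscle intermediate filament gene, was higher in every mutant library than in every wt library. It stood at 5.14, 7.03 and 6.06 CPM in wt replicates 1 to 3, at 14.6, 14.2 and 15.9 CPM in d9-20 and at 9.89, 8.37 and 10.3 CPM in d28-30. The 3 genotypes did not overlap, and their order was wt, d28-30, d9-20. The means were 6.07 ± 0.944, 9.53 ± 1.03 and 14.9 ± 0.902 CPM in that order (SD, n = 3 each), from 112 to 339 counts per library. The log2 fold change was 1.30 ± 0.14 (SE; 95% interval 1.00 to 1.60) in d9-20, or 2.46-fold, and 0.65 ± 0.14 (0.35 to 0.95) in d28-30, or 1.57-fold. In bulk tissue, more cells of a type and more RNA per cell cannot be told apart, and this holds for every level given here.

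Between the mutant alleles Des was 0.65 ± 0.13 higher in d9-20 on the log2 scale (95% interval 0.36 to 0.93), which did not pass the threshold of 0.05 after adjustment over all genes (edgeR, adjusted p = 0.236). In that comparison edgeR called 0 of 15695 genes (0.00%), with 1504 at an unadjusted p under 0.05, while DESeq2 called 79 and limma-voom 0. Des was among those called with DESeq2 (adjusted p = 0.00972) and in edgeR without the count minimum (adjusted p = 0.0218), and in none of the other 15 alternatives, where leaving out libraries gave adjusted p up to 0.732. The genotypes' libraries did not overlap for 16.8% of all genes in this comparison.

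Flnc, the muscle filamin, was also higher in every mutant library than in every wt library. Its level was 53.7, 69.4 and 58.3 CPM in wt, 116, 110.5 and 133 CPM in d9-20 and 105, 94.0 and 116 CPM in d28-30. Here the alleles overlapped. The means were 60.5 ± 8.04, 119.7 ± 11.6 and 105 ± 11.0 CPM (SD, n = 3 each), in the order wt, d9-20, d28-30, from 1135 to 2825 counts per library. The log2 fold change was 0.99 ± 0.11 (SE; 95% interval 0.74 to 1.23) in d9-20, or 1.98-fold, and 0.80 ± 0.11 (0.55 to 1.04) in d28-30, or 1.74-fold. Between the alleles it was 0.19 ± 0.11 (edgeR, adjusted p = 0.572). In wt, replicate 2 was the highest library for both Des and Flnc, and in d28-30 replicate 2 was the lowest for both.

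Against wt, 26 genes were called in d9-20 (0.166% of those tested) and 25 in d28-30 (0.159%). With the replicate number as a block, 55 were called in d9-20. Des and Flnc are among the 26 and Flnc is among the 25, and nothing is read from this because these values chose them. With the summed erythroid genes as a covariate, the log2 fold changes in d9-20 were 1.24 ± 0.19 for Des and 0.88 ± 0.15 for Flnc, and neither was then among the 5 genes called. With the summed Y-linked genes as a covariate they were 1.29 ± 0.15 and 0.99 ± 0.13.

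**Figure D1:**
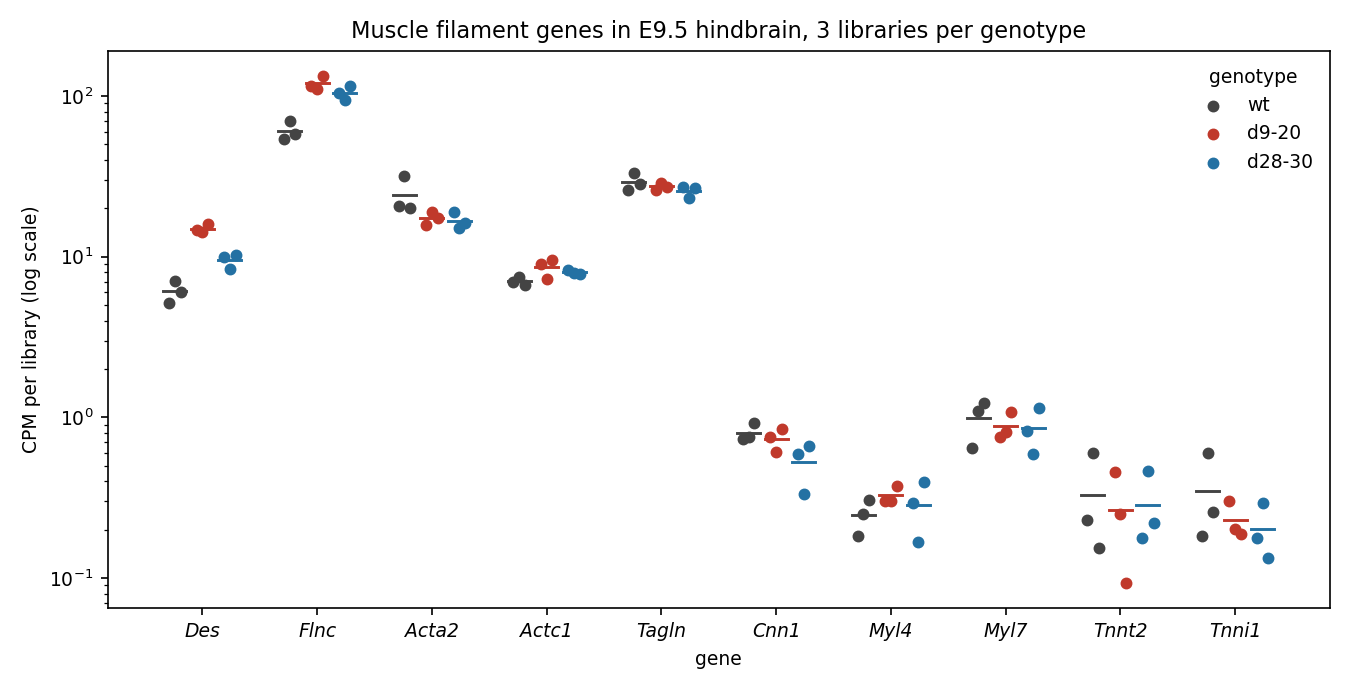
The plot of levels by genotype gives CPM per library on a log axis for the 10 genes, with 3 points per genotype and a bar at the mean. Des and Flnc are higher in each mutant library than in each wt library, while Myl4, Tnnt2 and Tnni1 lie below 1 CPM in all libraries.

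The filaments that Des and Flnc belong to were set beside their relatives. Flnc made up 4.48% to 5.36% of the summed reads of Flna and Flnc in wt. The share was 8.89% or more in each d9-20 library and 8.46% to 8.97% in d28-30, so that neither mutant overlapped wt. Since Flnc, like Des below, was chosen on its rise, its share describes that rise and is no test of it. Flna, a broadly expressed filamin gene, had log2 fold changes of -0.01 ± 0.07 in d9-20 and -0.09 ± 0.07 in d28-30 (edgeR, adjusted p = 1.00 and 0.647). Per kilobase of exon, Flna stood at 125 CPM in wt and Flnc at 6.43, and in d9-20 Flnc at 12.7 CPM per kilobase remained far below Flna (125).

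Des made up 0.590% to 0.986% of the reads of Des and Vim in wt and 1.94% to 2.31% in d9-20. In d28-30 its share was 0.954% to 1.32%, which overlaps wt through wt replicate 2, the wt library with the highest Des and the lowest Vim level. Vim, the intermediate filament gene of mesenchyme and neural progenitors, was at 177 CPM per kilobase in wt beside 1.62 for Des, and its log2 fold change in d9-20 was -0.28 ± 0.12 (edgeR, adjusted p = 0.823).

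**Figure D2:**
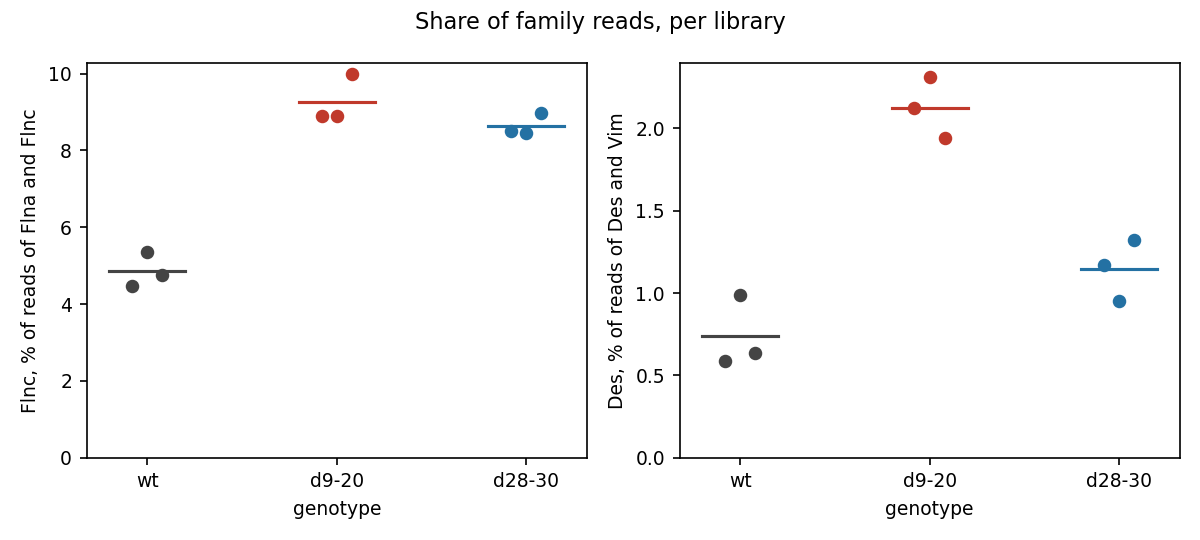
The plot of family shares gives the percent of Flna and Flnc reads that belong to Flnc (left) and the percent of Des and Vim reads that belong to Des (right), per library, with a bar at the mean. The Flnc share of each mutant library (8.46% or more) lies above that of each wt library (5.36% or less), while the Des share of d28-30 overlaps wt. Both Flnc and Des were chosen on their rise.

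No member other than Des and Flnc passed the test. None of the 5 others that could be tested was called in either mutant against wt or between the mutants by edgeR, DESeq2 or limma-voom. At an unadjusted p under 0.05, edgeR counted 2 of them in d9-20 (Acta2 and Actc1), 1 in d28-30 (Acta2) and 0 between the mutants, beside 5.95%, 8.08% and 9.58% of all genes tested. Their log2 fold changes were above 0 for 1 and below 0 for 4 in each mutant against wt, with medians of -0.12 in d9-20 and -0.21 in d28-30, beside medians of 0 over all genes. In the comparison between mutants the 5 were above 0, with a median of 0.10 beside -0.01 over all genes. This is a description, since the 5 were chosen with the values of these libraries known.

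Acta2, the smooth muscle actin gene, stood at 20.6, 31.6 and 20.1 CPM in wt, at 15.8, 19.1 and 17.5 CPM in d9-20 and at 18.9, 15.0 and 16.3 CPM in d28-30. Each mutant library was below each wt library, and wt replicate 2 was far above the other wt libraries. The log2 fold change was -0.46 ± 0.17 (SE; 95% interval -0.84 to -0.09; edgeR, unadjusted p = 0.0196, adjusted p = 0.632) in d9-20 and -0.53 ± 0.17 (-0.91 to -0.16; unadjusted p = 0.00969, adjusted p = 0.457) in d28-30. Without wt replicate 2 these values were -0.22 and -0.29. The direction was thus opposite to that of Des and Flnc, without passing the threshold.

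Actc1, the cardiac actin gene, stood at 6.97, 7.43 and 6.63 CPM in wt, at 9.05, 7.31 and 9.54 CPM in d9-20 and at 8.30, 7.91 and 7.82 CPM in d28-30. It was the only one of the 5 with values above 0 against wt, with d28-30 above wt in all libraries and d9-20 replicate 2 within the wt range. Its log2 fold change was 0.30 ± 0.12 (95% interval 0.03 to 0.58; edgeR, adjusted p = 0.742) in d9-20 and 0.19 ± 0.13 (-0.08 to 0.47; adjusted p = 0.617) in d28-30. The actin genes have very similar coding sequences, and the handling of reads that match several of them is not given in the sources used here, so the split between Acta2, Actc1 and their relatives is uncertain.

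Tagln, which encodes the actin-binding protein transgelin, stood at 26.1, 33.0 and 28.4 CPM in wt, at 26.0, 28.8 and 27.3 CPM in d9-20 and at 27.0, 23.3 and 26.6 CPM in d28-30. The groups overlapped. Its log2 fold change was -0.09 ± 0.11 (95% interval -0.32 to 0.14; edgeR, adjusted p = 1.00) in d9-20 and -0.19 ± 0.11 (-0.42 to 0.05; adjusted p = 0.611) in d28-30. Tagln had 459 to 657 counts per library. The gene overlaps Pcsk7 and the antisense gene Gm48529, and the strand setting of the counting is not given in the sources used here.

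Cnn1, the smooth muscle calponin gene, was near 1 CPM or below. It stood at 0.734, 0.753 and 0.924 CPM in wt, at 0.759, 0.605 and 0.845 CPM in d9-20 and at 0.589, 0.336 and 0.663 CPM in d28-30, from 8 to 18 counts per library. The d28-30 libraries were below the wt libraries, and the d9-20 libraries overlapped them. Against wt the log2 fold change was -0.12 ± 0.30 (95% interval -0.77 to 0.54; edgeR, adjusted p = 1.00) in d9-20 and -0.61 ± 0.31 (-1.30 to 0.08; adjusted p = 0.610) in d28-30.

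Myl7, the atrial myosin regulatory light chain gene, stood at 0.642, 1.10 and 1.23 CPM in wt, at 0.759, 0.807 and 1.08 CPM in d9-20 and at 0.824, 0.589 and 1.15 CPM in d28-30. The genotypes overlapped, with 14 to 26 counts per library. Against wt the log2 fold change was -0.16 ± 0.33 (95% interval -0.89 to 0.58; edgeR, adjusted p = 1.00) in d9-20 and -0.21 ± 0.33 (-0.94 to 0.53; adjusted p = 0.816) in d28-30.

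Over these 5 genes, the libraries did not overlap for Acta2 in d9-20 against wt, beside 11.2% of all genes tested, and for Acta2, Cnn1 (both lower) and Actc1 (higher) in d28-30 against wt, beside 12.8%. Between the mutants all 5 overlapped.

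Myl4, Tnnt2 and Tnni1, which encode an atrial and embryonic myosin light chain, the cardiac troponin T and the slow skeletal troponin I, were close to the floor. Myl4 had 15 counts summed over wt, 20 over d9-20 and 18 over d28-30, ratios to wt of 1.33 (exact 95% interval 0.648 to 2.79) and 1.15 (0.548 to 2.46) after division by library size. Tnnt2 had 20, 16 and 19 counts, with ratios of 0.798 (0.387 to 1.62) and 0.912 (0.46 to 1.8). Tnni1 had 21, 14 and 13 counts, with ratios of 0.665 (0.313 to 1.37) and 0.594 (0.273 to 1.24). The intervals cover counting error only and all include 1, and changes within them were not detectable at this depth.

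**Figure D3:**
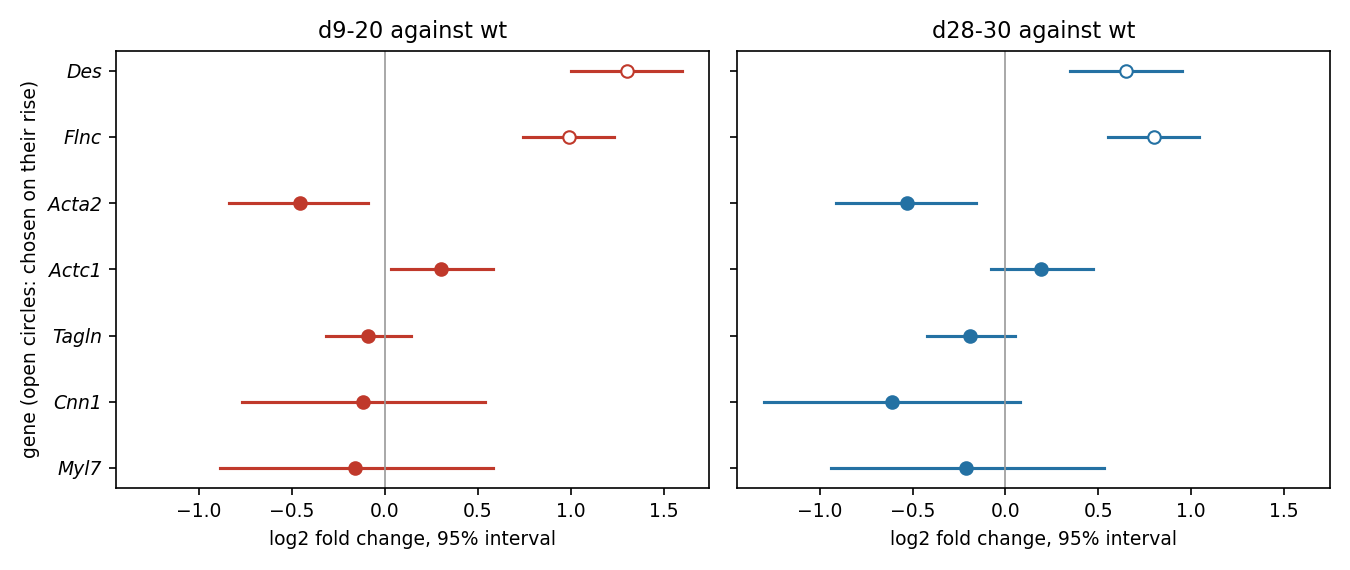
The plot of fold changes gives the log2 fold change of each mutant against wt with its 95% interval for the 7 tested genes, with open circles for Des and Flnc, which were chosen on their rise. Among the filled circles, only Actc1 lies above 0, at 0.30 in d9-20 and 0.19 in d28-30.

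Per kilobase of exon, the order of levels in wt was Tagln (14.7 CPM per kilobase), Acta2 (11.0), Flnc (6.43), Actc1 (4.33), Myl7 (1.68), Des (1.62) and Cnn1 (0.294). Tagln and Acta2 overlapped across wt libraries, as did Myl7 and Des, and the other neighbours in this order did not overlap. In d9-20 the level of Flnc (12.7 CPM per kilobase) stood above that of Acta2 (7.95) in all libraries and overlapped that of Tagln (13.8), and in d28-30 the order was Tagln (12.9), Flnc (11.2) and Acta2 (7.61), with Tagln and Flnc overlapping.

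Lists of genes of muscle and of the cell types in or around the hindbrain contained no gene called by edgeR in any of the 3 comparisons, beside 0.166%, 0.159% and 0.00% of all genes tested. The 12 lists were set with results of these data known, leave out the 10 members and held 134 tested genes. At an unadjusted p under 0.05 edgeR counted 34 of them (25.4%) for d9-20 and 17 (12.7%) for d28-30, each against wt. Between the mutants the count was 28 (20.9%). Over all genes tested these shares were 5.95%, 8.08% and 9.58% in the same order. DESeq2 called 5, 1 and 1 of the 134 genes in that order, beside 0.771%, 0.605% and 0.503% of all genes tested, and limma-voom 0. The 5 were Col1a1, Col1a2, Foxc2, Hbb-y and Tbx1. With the replicate block edgeR called 3 in d9-20 against wt (Col1a1, Col1a2 and Tbx1), beside 0.350% of all genes tested. None of these belongs to the lists of muscle filament genes.

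Of 29 striated sarcomere genes, 17 were tested. In d9-20, 9 were above 0 and 8 below, with a median log2 fold change of 0.01, and in d28-30, 5 were above and 12 below, with a median of -0.06. The tropomyosin genes Tpm1 and Tpm2 had the highest levels (250.3 and 43.2 CPM in wt), with log2 fold changes of -0.09 ± 0.07 and 0.16 ± 0.10 in d9-20 (edgeR, adjusted p = 1.00 for both). The highest value in the list was that of Mybph, a myosin-binding protein gene, at 0.99 ± 0.32 in d9-20 (edgeR, adjusted p = 0.516), from 0.614 CPM in wt and 1.24 CPM in d9-20. In d28-30 it was 0.06 ± 0.35. Mybph was named after its value was seen.

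Of 20 smooth muscle and non-muscle contractile genes, 18 were tested, with medians of 0.06 in d9-20 and -0.05 in d28-30. Actb, the cytoplasmic beta actin gene, had a log2 fold change of 0.04 ± 0.08 in d9-20, and Myh10, a non-muscle myosin heavy chain gene, -0.03 ± 0.06 (edgeR, adjusted p = 1.00 for both). Myh11, the smooth muscle myosin heavy chain gene, had 5 to 12 counts per library. Other smooth muscle markers were higher. Smtn had means of 50.6, 55.7 and 48.4 CPM in wt, d9-20 and d28-30, and Myocd, from the SRF list, 1.91, 2.36 and 2.10 CPM. Acta2 and Cnn1 are given above. Of 12 intermediate filament genes, 11 were tested, with 2 above 0 and 9 below in d9-20 and a median of -0.26, and with 4 above and 7 below in d28-30 and a median of -0.03. Nes, the progenitor filament nestin, had a log2 fold change of -0.26 ± 0.12 in d9-20 (edgeR, adjusted p = 0.867).

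Of 16 genes for Flna, Z-disc partners of filamin C and chaperones of muscle, 8 were tested, with medians of 0.02 in d9-20 and -0.11 in d28-30. The highest of the 8 in d9-20 was 0.58 ± 0.25 for Cryab (edgeR, adjusted p = 0.801), a small heat shock protein gene that was named after its value was seen. Of 13 SRF cofactors and targets listed, 8 were tested, with medians of 0.07 and -0.02. Srf itself was at 75.0 CPM in wt, with log2 fold changes of 0.03 ± 0.14 in d9-20 and -0.20 ± 0.14 in d28-30 (edgeR, adjusted p = 1.00 and 0.623).

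The myogenic factors that define skeletal muscle and several defining heart genes were near the floor. Myod1 had 0 to 2 counts per library, Myog 0 to 3, Myf6 0 to 3 and Myf5 1 to 7. Among heart genes, Nkx2-5 had 2 counts in wt replicate 2 and 0 in the other 8 libraries, Nppa had 1 count in wt replicate 1 and 0 elsewhere, Tbx5 had 0 to 4 and Myl2 0 to 2. Other genes of these lists, which are also expressed outside muscle, were well above the floor, with means in wt of 27.1 CPM for Isl1, 20.4 CPM for Tbx1 and 6.49 CPM for Tbx20. Hand1 had 107 counts in wt replicate 2 and 1 to 49 in the other libraries. Tbx1, a factor of the pharyngeal region, was at 18.5 to 21.7 CPM in wt and 25.4 to 31.8 CPM in d9-20 without overlap, with a log2 fold change of 0.53 ± 0.13 (edgeR, adjusted p = 0.194), and at 19.7 to 25.8 CPM in d28-30. Over the tested skeletal muscle regulators (11 of 15), the medians were 0.09 in d9-20 and 0.17 in d28-30, with Mef2a and Pax3 at the highest levels and log2 fold changes in d9-20 of 0.04 ± 0.13 and -0.01 ± 0.09 (edgeR, adjusted p = 1.00 for both). Their summed level ranged over 295 to 341 CPM (wt), 352 to 356 CPM (d9-20) and 341 to 398 CPM (d28-30). The heart list had 6 of 13 genes tested, with medians of -0.15 and 0.15 and summed levels of 34.6 to 47.3, 26.0 to 46.3 and 39.8 to 56.1 CPM in the same order.

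Defining neural markers were present, with Sox2, a neural progenitor factor, at 131 to 135 CPM in the genotype means and the hindbrain genes Hoxa2 and Hoxb1 at 21.4 and 19.0 CPM in wt. Genes of mural cells, the contractile cells of small vessels, had medians of 0.08 in both mutants (10 of 11 tested), with Notch3 at 0.03 ± 0.14 and Pdgfrb at 0.13 ± 0.10 in d9-20 (edgeR, adjusted p = 1.00 for both). Their summed level ranged over 372 to 410.5 CPM (wt), 375 to 450.1 CPM (d9-20) and 319.9 to 435 CPM (d28-30). Most of this sum came from Notch3 and Pdgfrb, at 232 and 79.7 CPM in wt. The mural markers Rgs5 and Cspg4 were scarce. In wt, d9-20 and d28-30 the means were 0.795, 0.703 and 0.519 CPM for Rgs5 and 1.12, 0.839 and 1.16 CPM for Cspg4. The 14 genes of cranial mesenchyme and neural crest had medians of 0.18 and 0.02 and summed levels of 1049.6 to 1174, 969 to 1156 and 985 to 1059 CPM. In d9-20, 5 of them were above wt in all libraries and 2 below, beside 11.2% of all genes tested that did not overlap in either direction. Col1a1, a collagen gene, was at 58.3 to 118 CPM in wt, 21.0 to 39.0 CPM in d9-20 and 26.9 to 36.9 CPM in d28-30, with log2 fold changes of -1.52 ± 0.27 and -1.34 ± 0.27 (edgeR, adjusted p = 0.0664 and 0.128).

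The 8 endothelial genes were all above 0 in d9-20, between 0.09 and 0.23, with a median of 0.14 and summed levels of 289 to 308 CPM in wt and 319 to 346 CPM in d9-20. In d28-30 the sum was 289 to 321 CPM and the median 0.07. Of the 13 erythroid genes, 12 were below 0 in d9-20, with a median of -0.55, and 11 in d28-30, with a median of -0.21. The part of these cell types in the levels of Des and Flnc was not tested, beyond the fit with the erythroid covariate given above.

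**Figure D4:**
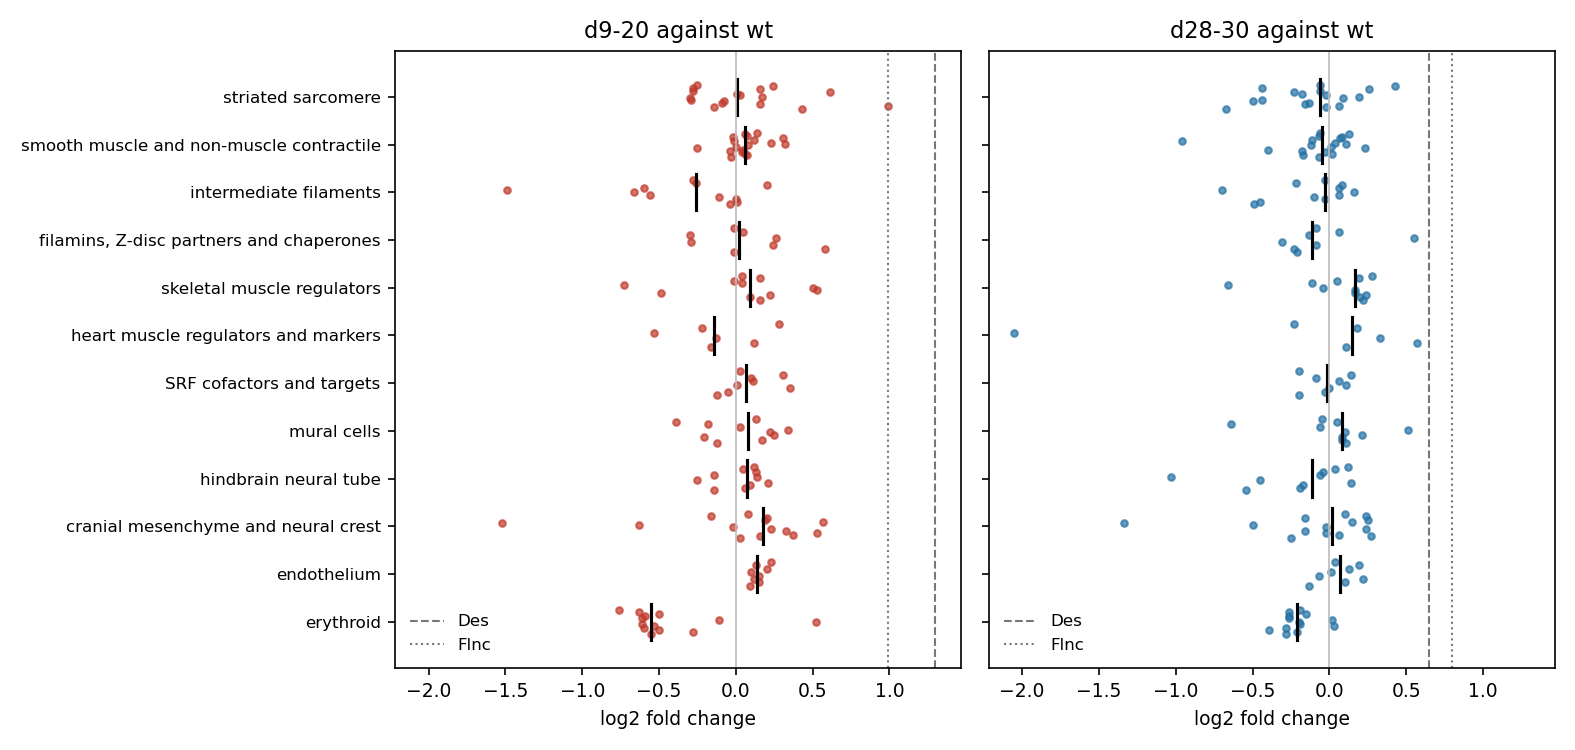
The plot of lists gives the log2 fold change against wt of every tested gene of 12 lists of muscle and cell types, with a black bar at the list's median and lines at Des and Flnc, which were chosen on their rise. In d9-20 the medians shown run from -0.55 (erythroid) to 0.18 (cranial mesenchyme and neural crest), and single genes reach -1.52 (Col1a1) and 0.99 (Mybph).

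The genes whose pattern over the 9 libraries was most like that of Des were found by Pearson's r of log2(CPM + 0.5), among 12802 genes with a mean of at least 1 CPM. They were Pxdn (r = 0.974), Cd276 (0.965), Rnf135 (0.963), Tead4 (0.954) and Clmn (0.949). Of these, Rnf135 had a log2 fold change in d9-20 nearest to that of Des, at 1.13, with 3.14 CPM in wt and 6.89 CPM in d9-20, while Pxdn, a peroxidase of the extracellular matrix, was at 0.21. The 9 libraries share their genotypes, so r mainly reflects the order of the genotypes.

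For Flnc, genes among the 5 most alike were Irx4 (r = 0.971), Kcnj12 (0.959), Cpne5 (0.956) and Hip1 (0.953). Irx4, a homeobox factor, went from 7.31 CPM in wt to 13.1 CPM in d9-20 and 11.3 CPM in d28-30. Cpne5, which encodes a calcium-dependent membrane-binding protein, went from 17.6 to 31.3 and 29.6 CPM. Flnc was the 9th most alike gene to Des (r = 0.941), and Des the 9th to Flnc. Both were chosen for being higher in the mutants, so a high r over all 9 libraries follows in part from that choice. The ranks of the other members are for this reason not comparable with theirs. Of the other 8 members, only Acta2, Actc1 and Tagln reached the minimum of 1 CPM and could be ranked. Among the 12802 genes their ranks for Des and Flnc in turn were 153 and 108 for Actc1, 11622 and 12257 for Acta2, and 8021 and 10123 for Tagln. With Des and Flnc in turn, r was 0.781 and 0.814 for Actc1, -0.465 and -0.564 for Acta2 and -0.097 and -0.244 for Tagln. With each library taken as its deviation from its genotype mean, r was 0.39 and 0.53 for Actc1, 0.67 and 0.59 for Acta2 and 0.85 and 0.72 for Tagln, and 0.95 between Des and Flnc. Within genotypes Acta2 and Tagln thus varied in the same direction as Des and Flnc, and over all 9 libraries they did not.

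The genes next to Des and Flnc were looked at after the members' values were seen. Speg, a striated muscle kinase gene that begins 6.72 kb beyond Des on the same strand, was at 33.6, 38.8 and 40.0 CPM in wt, at 56.7, 57.2 and 59.4 CPM in d9-20 and at 50.9, 32.7 and 52.3 CPM in d28-30. The d9-20 libraries were all above wt, and d28-30 overlapped wt through replicate 2. The log2 fold change of Speg was 0.62 ± 0.15 in d9-20 (edgeR, adjusted p = 0.227) and 0.27 ± 0.15 in d28-30 (adjusted p = 0.611). Dnpep, on the other side of Des, was at -0.02 ± 0.12 in d9-20. Of the neighbours of Flnc, Ccdc136 lies 6.26 kb before it and Atp6v1f 5.83 kb beyond it, with log2 fold changes in d9-20 of 0.22 ± 0.09 and 0.04 ± 0.13 (edgeR, adjusted p = 0.725 and 1.00).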

How the data were processed

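Total RNA from hindbrains on embryonic day 9.5 went into stranded libraries read as single reads, per the labels' protocols. The table that the authors deposited holds raw read counts, as whole numbers, by gene symbol and library. Per the submitters' processing notes, the tools were STAR 2.5.3a, featureCounts and limma, with mm10 (GRCm38) as the genome. Which annotation and strand setting were used, and how reads matching several genes were treated, is not given in the sources used here. Table columns were matched to samples by title, and 0 columns belonged to no sample.

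Counts were analysed with edgeR 4.0.16 in R 4.3.3: filterByExpr by genotype, TMM scaling, and 1 quasi-likelihood model (glmQLFit, glmQLFTest) over all 9 libraries with genotype as the factor. Adjusted p-values are Benjamini-Hochberg values across all 15695 genes tested, with a threshold of 0.05. Standard errors are the absolute log2 fold change divided by the square root of F. CPM were computed with TMM-scaled library sizes, with SDs over 3 libraries. The square root of the common dispersion was 0.110. Ratios of genes below the count minimum use summed counts, and their exact 95% intervals (Clopper-Pearson) were computed in SciPy 1.17.1. Alternatives were DESeq2 1.42.0, limma-voom 3.58.1, RLE scaling, no filter, a replicate block, covariates for Y-linked and erythroid genes, only the genotypes compared, and each library left out. The code was tested on simulated counts.

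The members and lists were chosen with earlier results of these data known. The text names the 10 members, any list gene past the threshold (up to 4 a list), the 2 genes of a list with the highest wt level, and the 5 genes most like Des and Flnc. Not all of these are given, since some items are not reported here, and some genes outside the rule are given: the defining markers of muscle, heart, smooth muscle and hindbrain cells, and genes chosen after their values were seen (Mybph, Cryab, Tbx1, Tbx20, Isl1, Hand1, Col1a1, those called by another tool, and the neighbours of Des and Flnc). Deviations from the genotype mean correlated at 0.116, 0.316 and 0.515 between d9-20 and wt libraries of the same number. Between those of different numbers the values were -0.456 to 0.243, the highest for d9-20 replicate 1 with wt replicate 2. A pairing by number is thus not clear, and the labels do not say that a number marks a litter or day. The main model leaves the number out, and the replicate block is an alternative.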

Additional observations from a re-analysis of the deposited data

How the results depend on the processing

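None of the 5 other tested members was called in any of the 3 comparisons under any of the 17 alternatives. Of all fold changes of members under an alternative, 333 kept direction and call, 12 lost a call, 4 gained one and 8 changed sign. The 12 lost calls were those of Des and Flnc: in d9-20 against wt Des was called in 16 of 17 alternatives and Flnc in 14, and in d28-30 against wt Flnc was called in 9. Since these values chose Des and Flnc, the counts describe the settings and are no test of their rise. Flnc lost its call in d9-20 with the erythroid covariate (adjusted p = 0.116) and without wt replicate 1 (0.0521) or 3 (0.0595), and its log2 fold change was 0.88 to 1.09 throughout. In d28-30 it lost its call (adjusted p = 0.0501 to 0.115) with the Y-linked covariate, with only the genotypes compared, and without replicate 1 or 3 of wt or d28-30 or replicate 1 or 2 of d9-20, at 0.71 to 0.90 throughout. Cnn1 had no adjusted p from DESeq2 in d9-20 against wt.

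The values that changed sign were small. With the erythroid covariate Cnn1 in d9-20 against wt was 0.10 and Acta2 between the mutants -0.07. With each library left out in turn, Tagln in d9-20 against wt was -0.17 to 0.01, Myl7 -0.41 to 0.03 there and -0.50 to 0.02 in d28-30 against wt. Between the mutants Acta2 was -0.01 to 0.17 and Myl7 -0.18 to 0.34.

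The number of genes called depended on the settings, and the cause was not tested. In d9-20 against wt it was 121 with DESeq2, 148 without the filter, 55 with the replicate block, 13 with the Y-linked and 5 with the erythroid covariate, 40 with only the genotypes compared, and 6 to 93 with a library left out (6 without wt replicate 3, 93 without d28-30 replicate 2). In d28-30 against wt it was 95 with DESeq2, 98 without the filter, 48 with the replicate block, 12 with only the genotypes compared, and 10 to 33 with a library left out. Between the mutants it was 79 with DESeq2, 133 without the filter, 2 with the replicate block, and 0 to 4 with a library left out. In the comparisons that involve d28-30 the same-numbered libraries did not all deviate together (correlations of -0.265 to 0.355 with wt and 0.063 to 0.315 with d9-20). A pairing by number is thus not clear there either. The block ended no call of a member and made none. Counts of 2 to 12 per library limit what can be said of Myl4, Tnnt2 and Tnni1.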
